A study of Homo sapiens with 2 samples.

Results

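Mitochondrial ribosomal protein genes were taken as the genes whose symbol begins with MRPL or MRPS followed by a digit, each read from its brightest probe set that carries a single gene symbol. Of 18132 genes with such a probe set, 75 met this rule. They were 74 protein-coding genes, 47 of the large subunit (MRPL) and 27 of the small subunit (MRPS), and MRPL20-AS1, a long noncoding RNA gene that is described apart. RefSeq lists 77 protein-coding genes with these symbols. The 3 others, MRPL23, MRPL53 and MRPS24, lay only on probe sets with several entries and were not used. KGD4, once named MRPS36, carries no such symbol.

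The samples were 2 cultures of HCT116, an epithelial line from a human colorectal carcinoma, each hybridised to 1 Affymetrix array. The first culture carried a lentiviral shRNA against RAP1 (shRAP1, construct 4#), and the control culture carried a lentiviral negative-control shRNA (shNC). Both were infected at a multiplicity of infection of 20 and harvested at 72 h. A single shRNA and a single culture per group were used, so nothing below has a replicate check, and no test or p-value is given for any difference.

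The mitochondrial ribosome translates the few messenger RNAs that mitochondrial DNA encodes, all of them for subunits of the respiratory chain and ATP synthase. Its RNAs come from mitochondrial DNA, but its proteins are encoded in the nucleus, made in the cytosol and imported. Some descend from proteins of bacterial ribosomes, and the rest were added during mitochondrial evolution. The small subunit reads the messenger RNA, and the large subunit joins the amino acids.

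Signals are the authors' normalised probe set intensities, and a difference is shRAP1 minus shNC of their log2 values. The arrays had median signals of 78.9 in shRAP1 and 77.0 in shNC, and correlated at 0.997 across probe sets. A gene counted as measured where the higher of its 2 signals reached 78.0, the median of all values (the floor), which 10437 genes did. TERF2IP, the telomere protein also called RAP1, had a signal of 624 in shRAP1 and 1311 in shNC, a difference of −1.07 on its only probe set. The labels do not say which gene is meant by RAP1. RAP1A and RAP1B, small GTPase genes that share the name, differed by −0.18 and −0.10. Of 9 epithelial markers 6 passed the floor, with summed signals over all 9 of 31800 in shRAP1 and 31029 in shNC, while the intestinal genes CDX1, VIL1 and LGALS4 lay below it. Of 4 leukocyte markers on the array 1 passed (CD68, 89.5 in shRAP1 and 81.5 in shNC), with summed signals of 145 and 139 in the same order. None of 6 fibroblast and endothelial markers did, with sums of 207 in shRAP1 and 190 in shNC.

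The regions before the gene starts are shown first, for 2 lower and 2 higher members whose probe sets agreed, so that the letters counted below can be seen in place. Each is the 150 bases before the RefSeq start on GRCh38.p14, read 5′ to 3′ on the gene's strand. Capitals mark letters that match 1 of 5 promoter motifs searched on both strands. They are CCGGAAG, bound by ETS family factors, AAGATGGCG, bound by YY1, CGCATGCG, the core of the NRF1 site, CACGTG, the E-box, and GGGCGG, the GC box of SP factors. MRPS18C and MRPL1 were lower in shRAP1, and MRPL30 and MRPS10 higher. The windows lie at chr4:83455908-83456057 (plus strand), chr4:77862680-77862829 (plus strand), chr2:99181034-99181183 (plus strand) and chr6:42217862-42218011 (minus strand) in the order printed.
MRPS18C: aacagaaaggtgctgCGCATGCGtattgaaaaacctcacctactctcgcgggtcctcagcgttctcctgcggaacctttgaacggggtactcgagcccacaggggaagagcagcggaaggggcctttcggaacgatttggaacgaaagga
MRPL1: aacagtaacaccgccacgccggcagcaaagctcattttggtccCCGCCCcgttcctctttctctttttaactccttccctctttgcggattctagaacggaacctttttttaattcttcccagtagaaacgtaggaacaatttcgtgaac
MRPL30: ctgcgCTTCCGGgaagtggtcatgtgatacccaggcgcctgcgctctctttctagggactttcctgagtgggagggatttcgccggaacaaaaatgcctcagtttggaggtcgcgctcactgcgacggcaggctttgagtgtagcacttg
MRPS10: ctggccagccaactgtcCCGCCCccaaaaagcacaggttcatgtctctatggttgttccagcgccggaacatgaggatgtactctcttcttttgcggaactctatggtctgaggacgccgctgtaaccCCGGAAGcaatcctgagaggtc

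In MRPS18C the ETS letters and the E-box lie further upstream than the printed bases, and MRPS10 holds the YY1 letters just after its start. MRPS11, the lowest member by the probe set used, held none of the 5 motifs in its window.

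The ETS and YY1 letters were more frequent at the members than at other genes, and the GC box was the most frequent motif at both. RefSeq start windows of 300 bases, 250 before and 50 after the start, were found for 67 of the 74 members. A gene with several listed starts was counted where any window held the letters. The ETS letters occurred in 29 of the 67 (43.3%), against 16.5% of all 15843 protein-coding genes with a window and 23.0% of the 8531 other measured genes. The YY1 letters occurred in 12 (17.9%), against 3.21% of all and 4.99% of other measured genes. The NRF1 core was found in 3 members (4.48%) and the E-box in 9 (13.4%), against 3.28% and 10.9% of all windows and 4.63% and 13.1% of other measured genes. The GC box was found in 40 (59.7%), against 64.3% of all and 79.1% of other measured genes. ETS and YY1 letters stood together in 4 members and overlapped in 0. The 29 members with the ETS letters had a median difference of −0.038, with 19 lower, and the 38 without them a median of −0.030, with 24 lower. The subunits had opposite orders. In the large subunit the median was −0.098 in 17 genes with the letters and −0.029 in 24 without. In the small subunit it was −0.0021 in 12 genes with them and −0.035 in 14 without. These contrasts were not tested. Members with the YY1 letters had a median of 0.0023 (6 of 12 lower), and those without −0.036 (37 of 55 lower). A match describes the letters of the window and does not show that a factor binds there.

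All 74 protein-coding members passed the floor, and they were bright. Their signals ran from 352 to 4354 with a median of 1180 in shRAP1, and from 373 to 4559 with a median of 1210 in shNC. The dimmest members were MRPL35, at 352 in shRAP1 and 422 in shNC, and MRPL55, at 368 and 373 in the same order. The brightest was MRPL3, a core protein near the peptidyl transferase centre, at 4354 in shRAP1 and 4559 in shNC. The median member was brighter than 82.3% of measured genes and the dimmest than 47.5%. Probe sets bind with unequal strength, so signals of different genes are not compared as amounts of RNA.

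**Figure D1:**
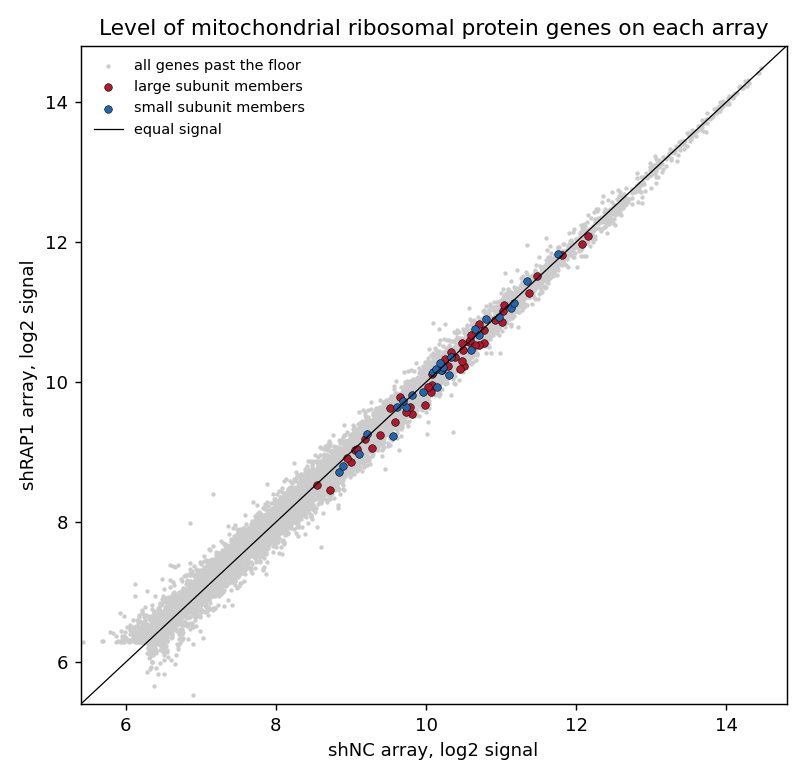
Log2 signal on the shRAP1 array (vertical axis) against the shNC array (horizontal axis) for the 47 large and 27 small subunit members and for all 10437 measured genes in grey, with a line of equal signal. The members lie in the upper part of the cloud, close to the line, with more of them below it (49 of 74) than above.

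The members were lower in shRAP1 on balance by a small amount. Of the 74, 49 were lower and 25 higher (66.2% lower, against 46.8% of all measured genes). Their median difference was −0.034, a level of 97.7% of shNC, and the 95% order-statistic interval of the median over member genes ran from −0.086 to −0.019. Such an interval is for the position of the median and counts genes on the same arrays as independent. It says nothing of the variation between cultures. The lower and upper quartiles of the members were −0.14 and 0.032. The median of all measured genes was 0.010. Bright genes in general stood slightly lower, and among the 5481 genes at least as bright as the dimmest member 53.3% were lower, with a median of −0.0097. At 1.1-fold or more, 17 members were lower, where 14.4% of all genes were. No member was higher by that size, where 19.5% of all genes were. At 1.2-fold 4 members were lower and 0 higher (3.58% and 4.96% of all genes), and at 1.5-fold 0 members differed either way (0.172% of all genes lower and 0.211% higher). In both MRPS11, among the 4, and MRPL52, outside them, probe sets equally bright within rounding lay on either side of 1.2-fold. The SD of the differences was 0.11 among members and 0.16 among all measured genes.

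Probe sets of the same gene on the same arrays give a sense of the measurement error, though not of the variation between cultures. Among 39 members with 2 or more distinct probe sets past the floor, the pooled SD of the differences within a member was 0.085. The median range within a member was 0.10 and the widest 0.53. The differences of the 2 brightest probe sets correlated at 0.59 across these 39 genes, which share the same 2 arrays. In 17 of the 39 all probe sets were lower, in 8 all were higher, and in 14 they went both ways. The share of all measured genes whose probe sets agreed was not counted. Only probe sets with identical signals were counted once, and whether the others share probes was not tested. In MRPS17, probe sets with signals of 124 and 182 in shRAP1 had the same difference of −0.060. Where probes are shared, agreement is not independent, and the within-member SD may understate the measurement error. Of all 74 members, 38 differed by less than the within-member SD in size. Beyond 2 such SDs, 0.17, there were 13 members, all of them lower. The share of all measured genes beyond that size was not counted. Their SD was 0.16, close to this size, so the count is not read as a result about the members. Pooled in the same way over all genes, the within-gene SD was larger, at 0.11.

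**Figure D2:**
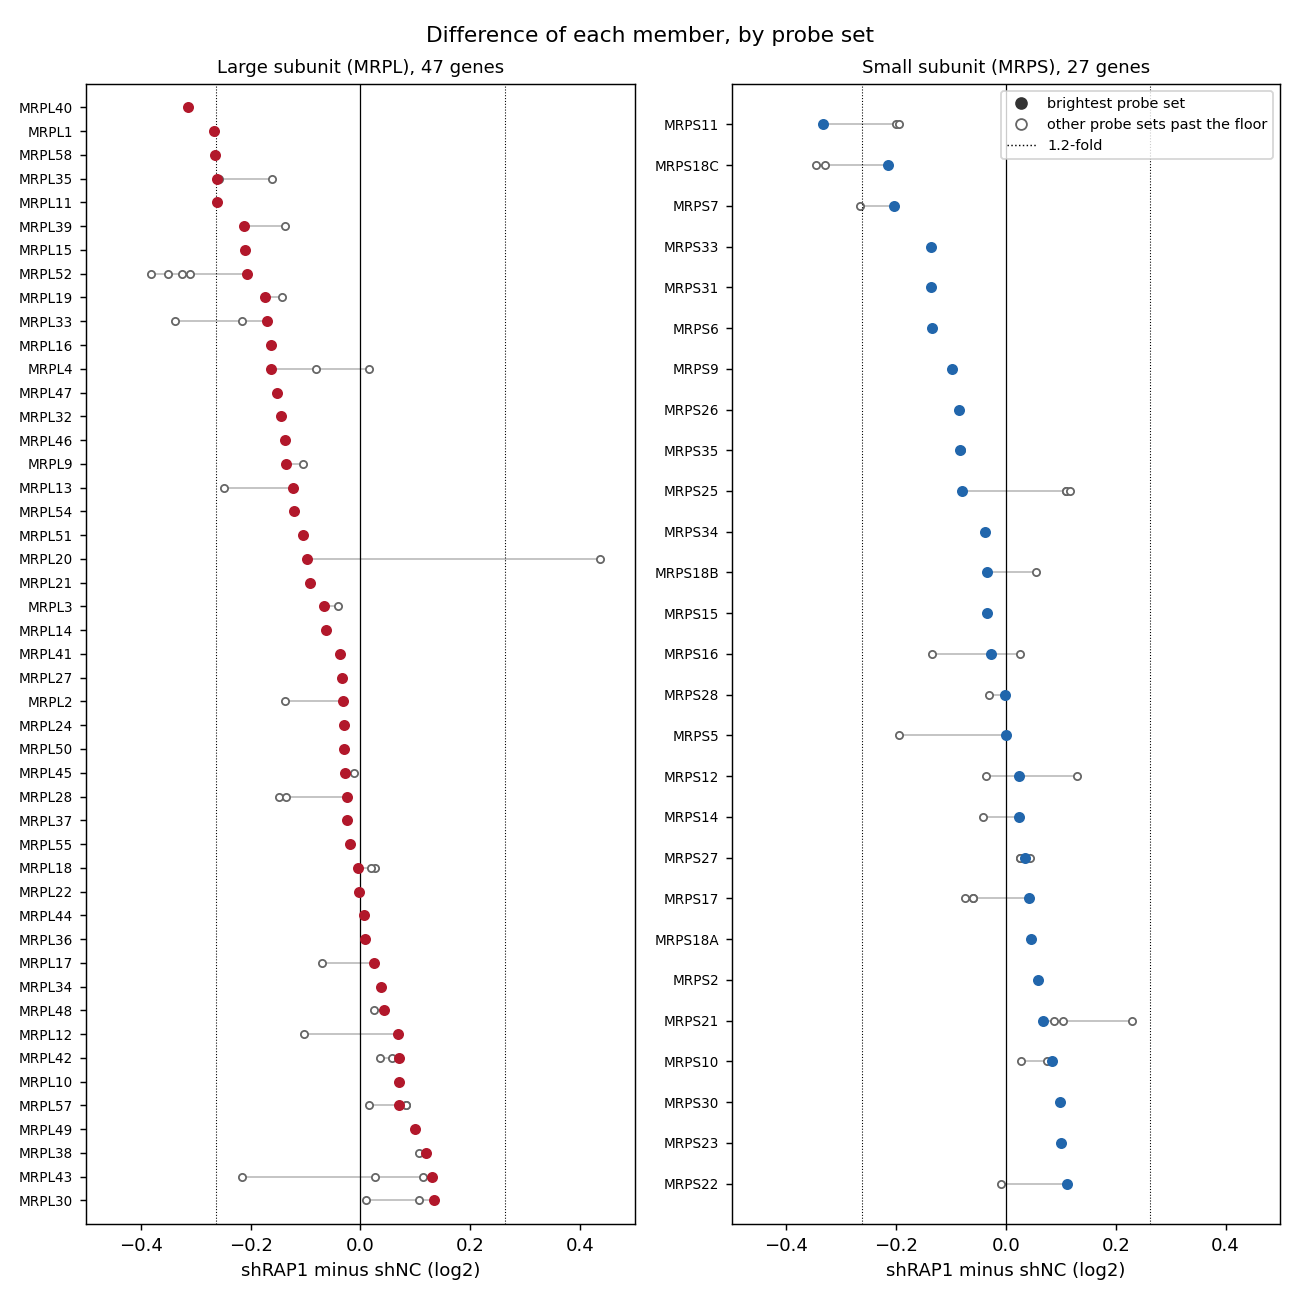
Difference of each member (shRAP1 minus shNC, log2) with the large subunit on the left and the small subunit on the right. Filled points are the brightest probe set, open points the other probe sets past the floor, grey lines their range, and dotted lines 1.2-fold. The lower end reaches −0.33 for MRPS11, and no filled point lies beyond 0.13 on the higher side, while an open point of MRPL20 lies at 0.44.

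Of the large subunit members with a bacterial homologue, MRPL1 was the lowest. MRPL1, the protein of the mobile stalk past which used tRNA leaves, had a signal of 1204 in shRAP1 and 1448 in shNC. Its 2 probe sets differed by −0.27 each, so both showed the same size. MRPL11, at the base of the stalk that recruits the elongation factors, had 1164 in shRAP1 and 1395 in shNC, a difference of −0.26 on 1 probe set past the floor. MRPL10 and MRPL12, which build that stalk itself, gave other values. MRPL10 had 1286 in shRAP1 and 1224 in shNC, a difference of 0.071. For MRPL12 the brightest probe set was at 0.069 and the other at −0.10, so its direction is unsettled.

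MRPL35, a homologue of a bacterial large subunit protein, had 352 in shRAP1 and 422 in shNC, and its 3 probe sets lay between −0.26 and −0.16. MRPL15, likewise, had 1507 in shRAP1 and 1744 in shNC, a difference of −0.21 on 1 probe set past the floor. MRPL19 had 1481 in shRAP1 and 1670 in shNC, and both of its probe sets were lower, at −0.17 and −0.14. The sizes of these 3 genes lay between 1.23 (MRPL19) and 1.66 (MRPL35) times the SD of the 501 genes nearest in brightness. MRPL33, chosen after its values were seen, had 1262 in shRAP1 and 1421 in shNC, and its 3 probe sets lay between −0.34 and −0.17. MRPL32, whose maturation by the m-AAA protease is known from yeast and mouse, had 607 in shRAP1 and 671 in shNC, a difference of −0.15.

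Among proteins of the large subunit with no counterpart in the bacterial ribosome, MRPL40 was the lowest, with 814 in shRAP1 and 1013 in shNC. Its difference of −0.31 on 1 probe set ranked 210th lowest of 10437 genes and had 2.19 times that SD. MRPL58, a peptidyl-tRNA hydrolase that frees stalled ribosomes and is also built into the large subunit, had 749 in shRAP1 and 900 in shNC, a difference of −0.27 on 1 probe set. MRPL39, which resembles threonyl-tRNA synthetase, had 535 in shRAP1 and 620 in shNC, with both probe sets lower (−0.21 and −0.14). MRPL52 was the member with the most probe sets in agreement. Its brightest probe set had 926 in shRAP1 and 1069 in shNC, a difference of −0.21, and the 4 others lay between −0.38 and −0.31. The next probe set, with 894 in shRAP1 and 1108 in shNC, was equally bright within rounding and differed by −0.31. The probe set used thus gave the smallest size for this gene, and 4 of its 5 probe sets passed 1.2-fold.

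In the small subunit, MRPS11 was the lowest of all members by the probe set used, with 599 in shRAP1 and 754 in shNC. It belongs to the platform of the subunit, near the path of the messenger RNA. Its difference of −0.33 ranked 176th lowest of all genes and had 2.30 times the SD of its 501 neighbours in brightness, while its other 2 probe sets past the floor were at −0.20 each. Of these, the probe set with 627 in shRAP1 and 720 in shNC was as bright, within rounding, as the probe set used. With it MRPS11 would be neither the lowest member nor lower by 1.2-fold. MRPS7, an rRNA-binding protein of the head of the subunit, had 1100 in shRAP1 and 1268 in shNC, with probe sets at −0.20 and −0.27. MRPL40, and MRPS11 only by the probe set used, were the members of the 74 whose size passed 2 such SDs. How many of all measured genes passed 2 of theirs was not counted, so this is not read as a result about the members.

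Humans carry 3 paralogs of the bacterial protein S18, and their values differed. MRPS18C had 979 in shRAP1 and 1136 in shNC, a difference of −0.21, with its other probe sets at −0.33 and −0.35. MRPS18B had 1633 in shRAP1 and 1674 in shNC, and its 2 probe sets lay on both sides of 0, at −0.036 and 0.054. MRPS18A, which sits in the large subunit in spite of its name, had 613 in shRAP1 and 593 in shNC, a difference of 0.046. MRPS18C thus stood apart from its paralogs on all of its probe sets.

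The higher members were spread over both subunits and differed by at most 0.13. MRPL30 had 881 in shRAP1 and 803 in shNC, and its 3 probe sets lay between 0.010 and 0.13. MRPL38 had 796 in shRAP1 and 732 in shNC, with probe sets at 0.12 and 0.11. MRPS23 had 2782 in shRAP1 and 2594 in shNC, a difference of 0.10 on 1 probe set. All 3 sizes lay below the SD of genes equally bright. MRPL49 was at 0.099, and MRPS30, another protein of the large subunit in spite of its name, had 1913 in shRAP1 and 1786 in shNC, also a difference of 0.099. MRPS10 was at 0.085 with all 3 probe sets higher, MRPL57 at 0.071 with all 3 distinct ones higher, and MRPL42 at 0.069 with all 3 higher. MRPS21 was at 0.068, with 4 probe sets up to 0.23, and MRPS2 at 0.058.

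Among the 14 members with probe sets of both signs, MRPL20 had the widest range. MRPL20 had 2465 in shRAP1 and 2638 in shNC on its brightest probe set, a difference of −0.098, but 366 in shRAP1 and 271 in shNC on the other, a difference of 0.44. MRPL20-AS1, the RNA gene named for lying antisense to it, had 369 in shRAP1 and 317 in shNC, a difference of 0.22 on 1 probe set past the floor. Which transcripts the dimmer MRPL20 probe set reads was not tested. MRPL43 was at 0.13 on the brightest probe set and between −0.22 and 0.11 on the others, and MRPS25 at −0.080 on the brightest and between 0.11 and 0.12 on 3 others. MRPS5 was at 0.00061 and −0.20, and the 3 probe sets of MRPL4 lay between −0.16 and 0.016. The probe sets of MRPS16 ran from −0.13 to 0.025, those of MRPS12 from −0.037 to 0.13 and those of MRPS22 from −0.0094 to 0.11. MRPS17 ran from −0.075 to 0.042, MRPL17 from −0.070 to 0.025, MRPS14 from −0.042 to 0.024 and MRPL18 from −0.0046 to 0.026. No direction is given for these genes.

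The subunits were close to each other. In the large subunit 34 of 47 genes were lower (72.3%), with a median of −0.036 (95% order-statistic interval −0.12 to −0.024). In the small subunit 15 of 27 were lower (55.6%), with a median of −0.028 (−0.086 to 0.042). The large minus small difference of the medians was −0.0087, and that of the means −0.035, against SDs among the genes of 0.12 in the large and 0.11 in the small subunit. The shares differed more than the medians, since 14 large subunit genes were lower by 1.1-fold or more (29.8%) and 3 small subunit genes (11.1%). With 1 array per group the contrast between subunits could not be tested. Placed by the human structure, with MRPS30 and MRPS18A in the large subunit, the medians were −0.034 in the large and −0.034 in the small subunit. The shares still differed, with 34 of 49 large (69.4%) and 15 of 25 small subunit genes (60%) lower. At 1.1-fold or more, 28.6% of the large and 12% of the small subunit genes were lower.

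By origin, the large subunit proteins with a homologue in the bacterial ribosome were lower in 22 of 28 genes, with a median of −0.079. Those without one, MRPS30 among them, were lower in 11 of 19, with a median of −0.028. In the small subunit the medians had the other order, with 7 of 14 genes lower and a median of −0.014 for bacterial homologues, and 6 of 9 lower and a median of −0.080 for the rest. MRPL55, MRPS28, MRPS18A and MRPS18B were placed in no class. The means had the same order in both subunits, at −0.083 for bacterial homologues and −0.044 for the rest of the large subunit, and at −0.053 and −0.035 in the small subunit. At 1.1-fold, 10 of 28 bacterial homologues and 4 of 19 others were lower in the large subunit, and 3 of 14 and 0 of 9 in the small subunit. The order in the small subunit thus depends on the measure, and none of these contrasts was tested.

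Other genes of mitochondrial translation were also lower more often than higher. The mitoribosome proteins with symbols of another kind were lower in 4 of 4 measured genes (5 listed), with a median of −0.15, or −0.083 with the median of each gene's probe sets. GADD45GIP1, a protein of the large subunit, had 780 in shRAP1 and 987 in shNC, a difference of −0.34 on 1 probe set. CHCHD1 was at −0.16, PTCD3, an RNA-binding protein of the small subunit, at −0.15 on the brightest of its 6 probe sets and up to 0.14 on the others. The GTP-binding protein DAP3 was at −0.015. The translation factors were lower in 11 of 14 genes, with a median of −0.056. TSFM, which recharges the elongation factor TUFM, was at −0.21 on 1 probe set, and the release factor gene MTRF1L at −0.13 with all 4 probe sets lower. TUFM itself was at 0.053. OXA1L, which inserts new proteins into the inner membrane, was at 0.088.

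Assembly and rRNA factors went both ways, with 17 of 28 lower and a median of −0.049, or −0.016 among those past the higher floor at the 75th percentile. The rRNA pseudouridine synthase RPUSD4 was at 0.25 on the brightest of its 3 probe sets and at 0.12 by their median, with the lowest at 0.039. The GTPase NOA1 was at 0.23 and the rRNA methyltransferase NSUN4 at 0.21, with 1 of its 3 probe sets at −0.064. MTG2, a GTPase of large subunit assembly, was at −0.20 on the brightest of its 4 probe sets, and the highest of them reached 0.15. Of the 5 genes of mitochondrial transcription 4 were lower, with a median of −0.12. TFAM, which packs mitochondrial DNA and starts its transcription, had 365 in shRAP1 and 428 in shNC, with 3 probe sets between −0.27 and −0.20. The elongation factor gene TEFM was at −0.18, MTERF1 at −0.12, and the polymerase gene POLRMT at 0.096 with both probe sets higher.

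Set beside the members, the subunits of complex I encoded in the nucleus (NDUF genes) were lower in 31 of 35 genes, with a median of −0.11. The mitochondrial ribosome does not make these subunits. NDUFB2 was at −0.33, NDUFV2 at −0.27 and NDUFS7 at −0.26, where its 3 probe sets ran from −0.32 up to −0.23. The cytosolic ribosomal proteins were lower in 30 of 64 measured genes (77 listed) and higher in 32, with a median of 0.00018. Their SD among genes was 0.046, against 0.11 among the mitochondrial ones. RPL27A, near the floor at 79.0 in shRAP1 and 93.9 in shNC, was the lowest at −0.25. RPL7 was at −0.13, and the highest, RPL18, at 0.074. The members thus lay between both families in median, and no test of these contrasts was possible with 1 array per group. The median log2 level was 10.23 among the members and 13.89 among the cytosolic ribosomal proteins, and what part brightness has in their unequal spread was not tested.

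**Figure D3:**
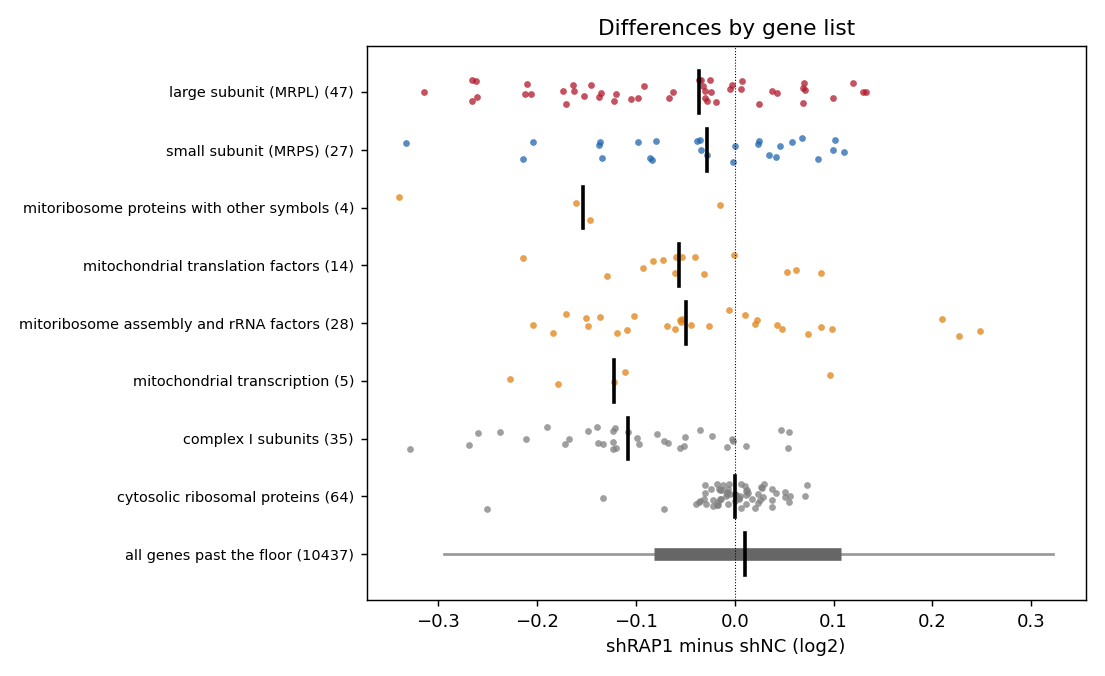
Differences (shRAP1 minus shNC, log2) of single genes by list, with a black bar at each median and the number of genes in brackets. For all 10437 measured genes the thick bar spans the middle 50% and the thin line the middle 95%. Most cytosolic ribosomal proteins cluster at 0, with RPL27A the lowest at −0.25, while the subunits of the mitochondrial ribosome reach down to −0.33.

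Brightness moved with the differences across the whole array. A lowess trend of all measured genes lay between −0.024 and 0.015 at the members' brightness, with a median of −0.012. With that trend taken away, 46 of 74 members were lower, the median was −0.026, and 3 members were lower by 1.2-fold. Among the 74 members Pearson's r between brightness and difference was 0.27 and Spearman's rho 0.26, as a description over genes that share the same 2 arrays. The dimmer members were thus the lower ones on balance, which is opposite to the trend of all genes.

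**Figure D4:**
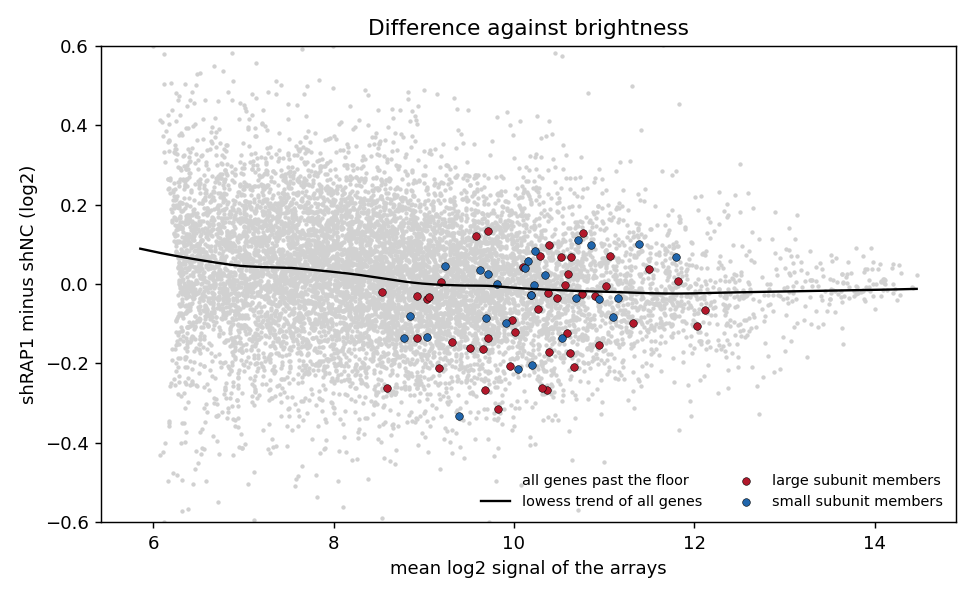
Difference (shRAP1 minus shNC, log2) against the mean log2 signal of the arrays for all measured genes in grey, the large subunit members in red and the small subunit members in blue, with the lowess trend of all genes as a line. The axis is limited to 0.6 either way, which leaves 34 genes outside. The trend is near 0 where the members lie, and 46 of 74 members lie below it.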

How the data were processed

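Total RNA of 1 shRAP1 and 1 shNC culture was extracted with Trizol and labelled with a 3′ in vitro transcription kit, per the labels' protocols. The values as deposited were intensity per probe set, not in log2. RMA is the only tool named, per the submitters' processing notes, and its version is not given in the sources used here. RMA normalises quantiles between arrays, so differences are relative to the other genes. Of 49293 non-control probe sets, 44988 carried 1 symbol, 1832 several and 2473 none in the platform annotation. Log2 of the deposited values was taken with no pseudocount. The brightest probe set was the one with the higher mean log2 value, and probe sets of a gene with identical values counted once. In MRPS11 and MRPL52 the brightest and the next probe set had equal means within rounding. The software was pandas 2.3.3, statsmodels 0.14.6 (lowess, span 0.3), scipy 1.17.1 and numpy 2.4.6 under Python 3.11.15. The calculations were tested on simulated data. The alternatives tried are given in the closing section.

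The members, lists and naming rule were chosen with earlier results of these data known. The motifs were chosen, and paralogs such as RPL7L1 taken out of the cytosolic list, after values were seen. The rule named up to 12 agreeing members per direction, up to 6 with probe sets of both signs, members with named roles and up to 4 genes per related list. Genes given beyond it were chosen after their values were seen.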

Additional observations from a re-analysis of the deposited data

How the results depend on the processing

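No paired analysis was possible because each group held 1 array. Values were recomputed with another rule from probe sets to genes, another floor, the _x_at and _s_at probe sets left out, lowess centring, means, and other folds. The member median stayed below 0 in all 7 settings that bear on it, between −0.057 (as a mean) and −0.026 (lowess). The large subunit median reached −0.070 with the dimmest probe sets, and the small subunit median −0.014 after lowess. The large minus small subunit median was 0.00048 with subunits placed by structure, opposite in sign to −0.0087. The count of members lower by 1.2-fold (4) was 7 with the dimmest probe sets, 0 at 1.5-fold and 17 at 1.1-fold. The count of members higher (0) was 1 with the dimmest probe sets and 1 with the _x_at and _s_at ones left out, which is MRPL20 in both. The centre of the cytosolic ribosomal proteins was −0.0020 as a mean and 0.014 after lowess. The cause of these shifts was not tested. Of the 336 recomputed single-gene values, 14 moved by more than the SD of the 501 genes nearest in brightness, a wide tolerance for differences this small. Of the same 336, 18 had another sign, in 11 genes, and 13 of these were among the 14. These were MRPL4, MRPL12, MRPL20, MRPL43, MRPS5, MRPS18B and MRPS25 among the members, and DAP3, MTG2, NSUN4 and PTCD3. TERF2IP and RAP1B have no value with the _x_at and _s_at probe sets left out. The number of arrays limits the precision.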

Other observations

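In the RefSeq gene order of GRCh38.p14, MRPS11 and MRPL46 on chromosome 15 were the only members next to each other. They differed by −0.33 and −0.14, and were noticed after the values were seen.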
